A study of Mus musculus with 7 samples.

Results

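The clustered protocadherins are cadherin-family cell surface proteins that stand in 3 neighbouring gene clusters, alpha, beta and gamma. Each neuron is known to use its own subset of them, and matching subsets on 2 membranes bind each other, which lets a neurite tell its own branches from those of other cells. An alpha or gamma transcript joins 1 large variable exon, with its own promoter, to 3 constant exons that all genes of that cluster share, whereas a beta gene is a single exon with its own end. The members were all entries of the bulk count table whose symbol has the form Pcdha, Pcdhac, Pcdhb, Pcdhga, Pcdhgb or Pcdhgc plus a number. There were 58 such entries among 50600, namely 14 alpha, 22 beta and 22 gamma entries. Pcdha11 was listed under that name in 2 entries, here called its first and second entry, so the entries hold 57 symbols. The family was taken up with earlier results of these samples known, so its differences between cultures and tissue are given as a description. Counts of members past a threshold in that contrast stand beside the same share of all genes, no p-value of a member is given for it, and nothing is read from these counts.

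Neural stem and progenitor cells (NSPCs) of the adult mouse dentate gyrus (DG), the hippocampal region that makes granule neurons throughout life, can be expanded as adherent cultures. Bulk RNA sequencing covered 4 separate primary NSPC cultures from C57Bl6J mice aged 6 to 8 weeks, females F1 and F2 and males M1 and M2. They were grown at passages 6 to 15 on poly-d-lysine and laminin with epidermal growth factor and basic fibroblast growth factor at 20 ng/ml each. Whole DG tissue came from 2 C57Bl6J mice aged 7 to 9 weeks, female F1 and male M2. The labels name no transgene, edited allele or drug treatment in any group. A single-cell library mixed equal numbers of cells of 3 cultures, 2 female and 1 male, from mice aged 6 to 9 weeks, at the same passages and with the same growth factors.

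Total counts lay between 9917697 and 11747408 in the cultures, and were 16676618 and 17351636 in whole DG F1 and M2. Culture and tissue libraries were made with different kits, so kit and group cannot be told apart. Levels are counts per 1000000 (CPM) on library sizes scaled by TMM, and means are given ± SD with n = 4 cultures and n = 2 whole DG libraries. All 6 neuronal markers were lower in the cultures, where they summed to between 10.4 and 14.7 CPM, against between 9555 and 10060 CPM in whole DG. All 4 microglial, all 4 endothelial and all 4 oligodendrocyte markers were lower as well, and C1qa of microglia and Cldn5 of endothelium had no count in any culture. Astrocyte markers were mixed, with 3 of 5 lower. Aldh1l1 was higher, at 288 ± 192 CPM in cultures and 49.2 ± 3.58 CPM in whole DG. Gja1 was not called, at 180 ± 24.1 CPM in cultures and 191 ± 2.20 CPM in whole DG. Of 7 stem and progenitor markers, 5 were higher in the cultures (2380 to 3511 CPM summed, against 156 to 157 CPM in whole DG), while Sox2 and Hopx were lower. In bulk samples, fewer cells of a type and less RNA per cell cannot be told apart.

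All members lie on chromosome 18. On the mouse assembly GRCm38 (GENCODE M21), the alpha cluster spans 36930184 to 37187661, the beta cluster 37264938 to 37524479 and the gamma cluster 37661793 to 37841873, in that order. The 14 alpha genes share 2860 bases and the 22 gamma genes 2116 bases of their 3 constant exons. Among the 22 beta genes, the exon of Pcdhb12 overlaps a gene on the opposite strand, and Pcdhb21 and Pcdhb22 overlap each other by 455 bases. Annotated antisense genes also overlap exons of 4 alpha and 8 gamma genes. Beta genes resemble each other in sequence, and the sources used here do not say how reads that fit several copies were treated.

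The deposited counts of alpha and gamma genes were almost the same from gene to gene within a library. In culture F1, 9 of 14 alpha genes had exactly 87 counts. In the same library 20 of 22 gamma genes were within 5% of the lowest gamma count of 8797. Over the 6 libraries, between 18 and 21 of the 22 gamma genes lay within 5% of the lowest. For alpha the number was 9 to 12 of 14 in the cultures and 7 in both whole DG libraries. The gene models Gm37013 and Gm37388 also overlap gamma constant exons, and both had 356, 281, 414 and 489 counts in cultures F1, F2, M1 and M2. Reads of constant exons thus appear in the count of every gene that contains them. A cluster's lowest count was therefore taken as its shared part, and a gene's count above the lowest as its gene-specific part. The lowest gene's own reads are lost to the shared part, by the same amount for every gene of a cluster in a library. Reads of any other gene that overlaps a variable exon, on either strand, can be part of the gene-specific reads. This split was chosen after the data were seen.

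The 3 clusters differed in how cultures compared with tissue. The alpha shared part was 7.19, 9.97, 4.59 and 2.83 CPM in cultures F1, F2, M1 and M2, against 99.5 and 88.7 CPM in whole DG F1 and M2. The means were 6.14 ± 3.12 CPM in cultures and 94.1 ± 7.64 CPM in whole DG, a level 15.3 times higher in whole DG, and the groups did not overlap. The gamma shared part was 727, 599, 848 and 992 CPM in the cultures, against 456 and 455 CPM in whole DG. Every culture was above both tissue libraries, with means of 791 ± 168 CPM in cultures and 456 ± 0.643 CPM in whole DG and a culture to whole DG ratio of 1.74. The 22 beta genes summed to 161, 183, 198 and 230 CPM in the cultures, against 199 and 183 CPM in whole DG. Here the groups overlapped, and the means of 193 ± 29.0 CPM in cultures and 191 ± 11.5 CPM in whole DG gave a ratio of 1.01. The neuronal markers, which fell in the cultures as given above, moved in the direction of the alpha cluster and against that of the gamma cluster, and their part in either was not tested.

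**Figure D1:**
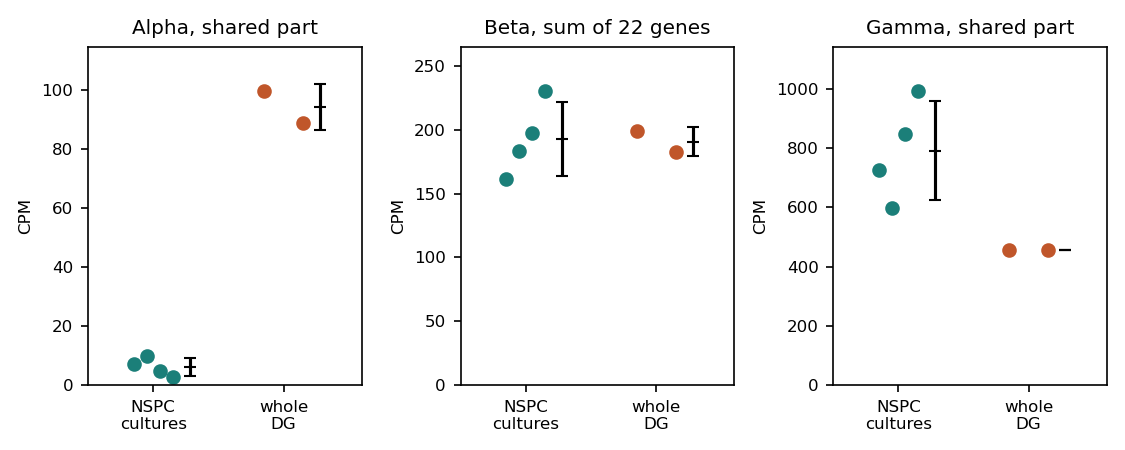
CPM of the alpha shared part, the sum of 22 beta genes and the gamma shared part in NSPC cultures (green, n = 4, left) and whole DG (orange, n = 2, right), 1 point a library, with bars at mean ± SD. Alpha lay at 2.83 to 9.97 CPM in cultures and at 88.7 and 99.5 CPM in whole DG, the beta sums overlapped, and gamma lay at 599 to 992 CPM in cultures and near 456 CPM in whole DG.

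In edgeR's quasi-likelihood test across all 18088 genes passing the filter on low counts, with the counts as deposited, all 14 alpha entries were called lower in the cultures at a Benjamini-Hochberg adjusted p of 0.05. The same test called 77.3% of all genes, 41.7% lower and 35.6% higher. It called 21 of 22 gamma genes higher and, of 21 beta genes tested, 3 higher and 6 lower. Median log2 differences (culture minus whole DG) were -3.94 for alpha, -0.35 for beta and 0.78 for gamma, against -0.13 for all genes tested. The alpha and gamma counts are close to 1 shared measurement each, repeated in every gene. The gamma count fell to 5 without whole DG F1 and to 4 without whole DG M2. With the gene-specific part in place of the deposited count, 13 of the 14 alpha entries entered the test and all 13 were called lower. Of 21 gamma genes 3 were called higher and 6 lower. In that fit 35.2% of all genes were called higher and 42% lower. Only 1 alpha entry, Pcdhac2, passed the same filter on the cultures alone. The other alpha entries entered through their whole DG reads and could hardly be called anything but lower, so their calls are no support. Leaving out 1 library at a time gave 10 to 13 alpha genes lower, 2 to 5 gamma genes higher and 3 to 7 gamma genes lower. The lowest of these counts came without whole DG F1 or M2 and the highest gamma counts without culture F2.

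Among alpha genes, Pcdhac2, one of the C-type genes at the end of the cluster, which are known from neurons to be used by most cells rather than chosen at random, had the highest gene-specific level. It had 5.12, 7.98, 4.20 and 0.78 CPM in cultures F1, F2, M1 and M2, against 37.5 and 36.0 CPM in whole DG F1 and M2. Every culture was below both tissue libraries, with means of 4.52 ± 2.97 CPM in cultures and 36.7 ± 1.10 CPM in whole DG (log2 difference -3.01, SE 0.56). Pcdhac2 held 72.1%, 69.2%, 74.6% and 19.5% of the gene-specific alpha reads in cultures F1, F2, M1 and M2, against 37.9% and 42.3% in whole DG F1 and M2. Culture M2 thus lay below the tissue and the other cultures above it, and in M2 Pcdha5 exceeded Pcdhac2, with 17 reads against 8. The other C-type alpha gene, Pcdhac1, had a single culture with reads above the lowest count, 2 in F2, against 58 and 62 reads in whole DG F1 and M2.

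The remaining alpha genes, the alternately chosen ones, had almost no gene-specific reads in the cultures. Pcdha2 and Pcdha6 had 0 in every culture, against 51 and 39 for Pcdha2 and 87 and 56 for Pcdha6 in whole DG F1 and M2. Pcdha8 was the lowest alpha gene in both whole DG libraries, with 0 gene-specific reads by construction, and it had at most 1 in a culture. The highest values in a culture were 20 reads for the first Pcdha11 entry in F2, 18 for Pcdha12 in F1 and 17 for Pcdha5 in M2. Each of these came from a different culture, and the same genes had 0 reads above the lowest count in at least 1 other culture. In whole DG the highest of them were Pcdha4, with 169 and 82 reads, and Pcdha12, with 162 and 98.

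The gamma cluster holds the subfamilies A and B, whose members are chosen variably from cell to cell in neurons, and the 3 C-type genes Pcdhgc3, Pcdhgc4 and Pcdhgc5. Pcdhgc3, best known for a role in dendrite branching, gave most of the gene-specific gamma reads in the cultures. It had 509, 429, 567 and 825 CPM in cultures F1, F2, M1 and M2, against 78.0 and 77.2 CPM in whole DG F1 and M2. All cultures were far above the tissue, with means of 583 ± 171 CPM in cultures and 77.6 ± 0.522 CPM in whole DG (log2 difference 2.91, SE 0.28). Pcdhgc3 made up 74.0% of gene-specific gamma reads in cultures and 19% in whole DG. The antisense gene BC037039 overlaps the variable exon of Pcdhgc3 and was at 337 ± 106 CPM in cultures and 48.9 ± 1.45 CPM in whole DG. Strand use in the counting is not stated, so reads of the pair cannot be told apart. With every read counted for BC037039 taken away, Pcdhgc3 was at 245 ± 65.5 CPM in cultures and 28.7 ± 0.919 CPM in whole DG, a ratio of 8.56. With strand use unknown and different kits, this subtraction may not mean the same in both groups. The part of BC037039 in the difference was not tested.

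Pcdhgc5, a C-type gene known to appear late in the development of neurons, differed the other way. It had 12.5, 5.29, 42.5 and 6.24 CPM in cultures F1, F2, M1 and M2, against 116 and 132 CPM in whole DG F1 and M2. Culture M1 was the highest of the cultures and still below both tissue libraries. The means were 16.6 ± 17.5 CPM in cultures and 124 ± 11.3 CPM in whole DG (log2 difference -2.90, SE 0.70). Pcdhgc5 held 2.15% of gene-specific gamma reads in cultures (1.09% without M1), against 30.3% in whole DG, where it was the leading gamma gene. Its annotated exons merge into 3 blocks, against 4 or 5 for the other gamma genes, so they cover an intron. Reads of other gamma transcripts that keep this intron can be part of the gene-specific reads of Pcdhgc5, and their share was not tested. Pcdhgc4, which is required for the survival of interneurons in mice, had 17.1, 18.9, 46.5 and 27.4 CPM in cultures, against 8.26 and 8.52 CPM in whole DG. All cultures were above the tissue, at 27.5 ± 13.5 CPM in cultures and 8.39 ± 0.178 CPM in whole DG (log2 difference 1.71, SE 0.42).

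Per kb of sequence outside the constant exons, Pcdhgc3 reached 172 CPM per kb in cultures and 22.9 in whole DG. Pcdhgc5, over a length that holds the intron named above, had 3.02 CPM per kb in cultures and 22.5 in whole DG. The latter was close to the whole DG level of Pcdhgc3. Next in the cultures came Pcdhga3 with 9.95, Pcdhgb6 with 9.35 and Pcdhgc4 with 7.90 CPM per kb. These 3 are within the spread of the cultures, since the SD of Pcdhgb6 was 23.2 CPM around a mean of 24.0 CPM.

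**Figure D2:**
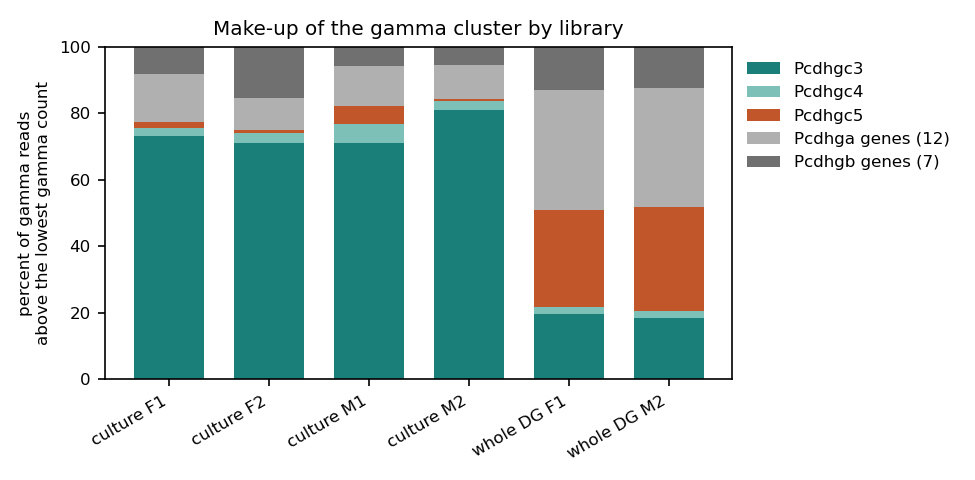
Percent of gene-specific gamma reads held by Pcdhgc3, Pcdhgc4, Pcdhgc5, the Pcdhga genes and the Pcdhgb genes, 1 stacked bar a library, NSPC cultures left of whole DG. Pcdhgc3 averaged 74.0% in cultures and 19% in whole DG, and Pcdhgc5 2.15% in cultures and 30.3% in whole DG.

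The 12 A-type and 7 B-type gamma genes were low in both groups and went both ways. Pcdhga11 had 7.69, 3.90, 6.02 and 0.68 CPM in cultures F1, F2, M1 and M2, against 29.0 and 24.8 CPM in whole DG F1 and M2, and the groups did not overlap (log2 difference -2.55, SE 0.59). The antisense gene Gm26672 overlaps exons of Pcdhga10, Pcdhgb7, Pcdhga11 and Pcdhga12, and was at 12.2 ± 3.63 CPM in cultures and 35.4 ± 1.49 CPM in whole DG. In whole DG it had 564 reads in both libraries, more than the 449 and 408 gene-specific reads of Pcdhga11, so reads of these genes and of Gm26672 cannot be told apart. The other gamma genes counted as lower were Pcdhga4, Pcdhga9, Pcdhga2 and Pcdhga6, with log2 differences between -1.91 and -0.56. Pcdhgb4, a B-type gene, was higher in every culture, at 5.95, 6.16, 8.02 and 12.6 CPM in cultures, against 2.97 and 2.43 CPM in whole DG (log2 difference 1.59, SE 0.39). Pcdhgb8, annotated as a polymorphic pseudogene, was the lowest gamma gene in 5 of the 6 libraries and was not tested. Some genes had 1 culture apart from the others. Pcdhgb7 had 29.0 CPM in culture F2 and 1.90, 5.64 and 9.17 CPM in F1, M1 and M2. Pcdhga12 had 0.35 CPM in F2 and 10.6 to 16.5 CPM in the other cultures. In the tissue pair the same genes were close together, at 7.62 and 8.45 CPM for Pcdhgb7 and at 19 and 25.4 CPM for Pcdhga12.

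**Figure D3:**
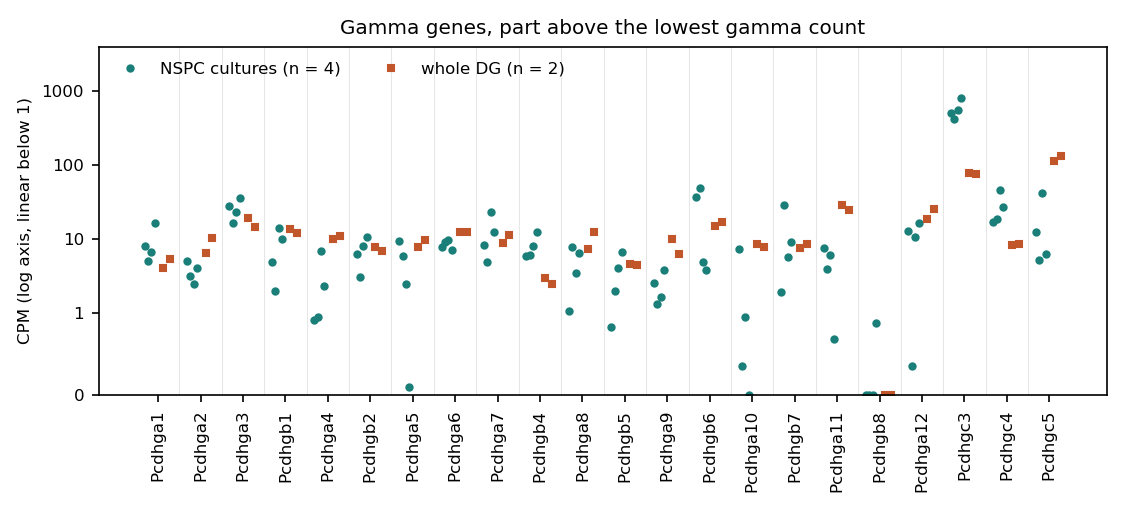
Gene-specific CPM of the 22 gamma genes on a log axis that is linear below 1, with NSPC cultures (green circles, n = 4) left of whole DG (orange squares, n = 2) within each gene. Pcdhgc3 stands alone at 429 to 825 CPM in cultures, and the points of most other genes are wider apart in cultures than in whole DG.

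Beta genes carry no constant exon, so their counts are separate measurements, apart from the overlap of Pcdhb21 with Pcdhb22 and of Pcdhb12 with its antisense gene. Pcdhb16, Pcdhb14 and Pcdhb19 had the highest culture means, at 21.1 ± 8.90, 20.9 ± 9.61 and 23.0 ± 7.29 CPM. In whole DG the highest were Pcdhb9 at 26.1 ± 1.19 CPM, Pcdhb17 at 19.1 ± 3.24 CPM and Pcdhb7 at 16.2 ± 0.689 CPM. Per kb of exon, beta levels ran up to 4.03 CPM per kb in the cultures, for Pcdhb16, and up to 8.56 CPM per kb in whole DG, for Pcdhb9.

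Pcdhb13 showed the widest gap. It had 1, 2, 0 and 2 counts in cultures F1, F2, M1 and M2, against 75 and 86 counts in whole DG F1 and M2 (log2 difference -5.36, SE 0.56). Pcdhb1 was close to the limit of detection everywhere, with a single count in the cultures together and 9 in whole DG together, a culture to whole DG ratio of 0.08 (exact 95% counting interval 0.0018 to 0.577). This interval holds counting error alone. It can be too narrow even for that, because bulk reads without molecular identifiers do not stand for separate molecules. Pcdhb3 had 0.91, 1.04, 2.48 and 3.02 CPM in cultures, against 9.68 and 7.85 CPM in whole DG, again with no overlap (log2 difference -2.24, SE 0.47). Pcdhb2, Pcdhb12, Pcdhb18 and Pcdhb17 were the other beta genes counted as lower, with log2 differences from -1.26 to -0.61.

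The beta genes counted as higher in the cultures were Pcdhb21, Pcdhb19 and Pcdhb14. Pcdhb21 had 7.69, 11.3, 11.6 and 10.9 CPM in cultures F1, F2, M1 and M2, against 3.1 and 3.71 CPM in whole DG F1 and M2 (log2 difference 1.60, SE 0.28). Its neighbour Pcdhb22, which shares 455 bases with it, had a log2 difference of -0.46 (SE 0.31). Pcdhb19 had 27.2, 31.1, 18 and 15.9 CPM in cultures, against 9.75 and 7.85 CPM in whole DG (log2 difference 1.39, SE 0.32). The groups did not overlap for either gene. Pcdhb14 had 17.1, 33.8, 21.4 and 11.1 CPM in cultures, against 10.3 and 9.43 CPM in whole DG, where culture M2 came within 1 CPM of the tissue (log2 difference 1.08, SE 0.41). Leaving out 1 library at a time gave 2 to 6 beta genes higher, with 5 without culture F1, 6 without culture F2 and 2 without either whole DG library, and 3 to 6 lower, with 3 without either whole DG library.

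Cultures differed from each other more at beta genes than at most genes. Pcdhb4 had 1.07, 3.29, 5.73 and 19.4 CPM in cultures F1, F2, M1 and M2, against 6.78 and 4.56 CPM in whole DG F1 and M2. The culture range, 18.1-fold, thus enclosed the tissue. Ranges across cultures were also wide for Pcdhb9 (10.6-fold), Pcdhb7 (9.39-fold), Pcdhb15 (9.37-fold) and Pcdhb6 (7.53-fold). For Pcdhb4 and each of these genes, both male cultures were above both female cultures. In these ranges, spread between cultures and a difference between sexes cannot be told apart. The median ratio of highest to lowest culture was 2.80 for beta genes, against 1.50 for all genes with a mean count of at least 20. The sets held the 21 beta genes other than Pcdhb1 and 15801 genes. Genes without a count in some library of a group, such as Pcdhb13 in the cultures, have no finite ratio and were left out of that median. In the whole DG pair the medians were 1.11 for beta genes and 1.10 for all genes. The beta genes have lower counts than many genes in that comparison, and the part of counting error in their range was not tested. In edgeR's fit between the sexes, the coefficient of variation beyond counting error had a median of 0.315 for beta genes. It was 0.210 for all genes with a mean count of at least 20. The 75th percentile over all genes in that fit was 0.313. Across the 22 beta genes, which share libraries and are not independent, pairs of cultures gave a Spearman's rho of 0.473 to 0.865, and the tissue pair one of 0.975. Culture M2 took part in the lowest of these values, with F1. For gene-specific gamma levels the culture pairs gave 0.423 to 0.766, and the tissue pair 0.860. The culture ranges cover 4 libraries and the whole DG ranges 2, made with different kits, so the 2 groups' ranges are not alike in kind. Whole DG pools the cells of a whole tissue, and how many cells founded each culture is not stated. The part of any of these in the spread was not tested.

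**Figure D4:**
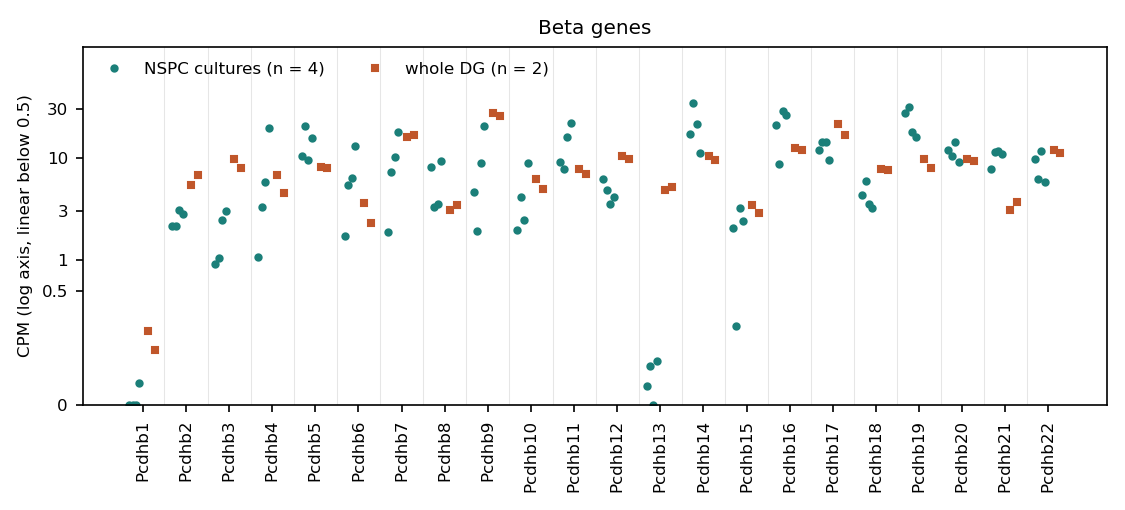
CPM of the 22 beta genes on a log axis that is linear below 0.5, with NSPC cultures (green circles, n = 4) left of whole DG (orange squares, n = 2) within each gene. The tissue points nearly coincide for most genes, while cultures spread over 18.1-fold for Pcdhb4, and Pcdhb13 is near 0 in cultures.

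The sexes were compared within the cultures, 2 male against 2 female, a contrast that the choice of members did not use. In edgeR's quasi-likelihood test on the counts as deposited, no member passed an adjusted p of 0.05, and 4 of 15140 genes did (0.0264%). At an unadjusted p under 0.05 stood 942 of all genes, 6 of 20 beta genes, all 14 alpha entries and 21 of 22 gamma genes, where the alpha and gamma numbers repeat 1 shared measurement each. DESeq2 called 60 genes in all. The beta gene nearest to the threshold was Pcdhb11, at 16.5 and 22.3 CPM in male cultures M1 and M2, against 9.44 and 7.95 CPM in female cultures F1 and F2 (edgeR adjusted p = 0.746).

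With the gene-specific part, Pcdhgb6 was the member that passed, where 0.0332% of 15079 features were called. It had 52 and 39 gene-specific reads in male cultures M1 and M2, against 454 and 574 in female cultures F1 and F2 (log2 difference male minus female -3.30, SE 0.28, edgeR adjusted p = 0.0425). The call was lost without culture M1 (adjusted p = 0.125) or without M2 (adjusted p = 0.232), while the log2 difference stayed between -3.50 and -3.09 with any culture left out. Whole DG F1 and M2, female and male, had 15.0 and 17.3 CPM of Pcdhgb6. With 2 cultures of a sex, a difference between cultures and a difference between sexes cannot be told apart.

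The single-cell method reads the 3' end of a transcript, which for alpha and gamma genes is a shared constant exon, and Cell Ranger is known to count a read only where it fits 1 gene. Alpha and gamma UMIs can thus come only from the reads that reach sequence of a single gene, and their levels cannot be set against those of beta genes. The library held 14912 cells with 2001 to 8531 UMIs each (unique molecular identifiers, a count of captured molecules), a median of 4048.5, and it has no replicate. All 14912 cell barcodes were distinct. The alpha genes had 13 UMIs in all, 9 of an entry of Pcdha11 and 4 of Pcdhac2, or 0.208 per 1000000 UMIs (95% Poisson interval 0.111 to 0.356), which with reads of constant exons left out does not show that alpha transcripts were absent. Beta genes had 3365 UMIs, or 53.9 per 1000000 (52.1 to 55.8), and gamma genes 2336, or 37.4 per 1000000 (35.9 to 39.0). At least 1 beta UMI was found in 2880 cells, 19.3% (exact binomial interval 18.7% to 20.0%), and at least 1 gamma UMI in 2123 cells, 14.2% (13.7% to 14.8%). All intervals cover counting error only. No cell type in the library lacks these genes by definition, so the 5 neuronal markers in the table serve as a low mark. They were found in 0.25% (Syt1), 0.29% (Camk2a), 0.63% (Rbfox3), 0.75% (Snap25) and 1.08% (Gad1) of the same cells, and 8 single beta genes and 4 single gamma genes were found in a larger share than any of them.

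Single beta genes reached at most 2.76% of cells, for Pcdhb16 with 423 UMIs, followed by Pcdhb17 with 359, Pcdhb14 with 356 and Pcdhb19 with 351. Pcdhb2, with 10 UMIs, was the lowest of the 21 beta genes in the table, which does not list Pcdhb1. Pcdhb13, near 0 in the bulk cultures, had 28 UMIs, more than Pcdhb2 and than Pcdhb3 with 15. Their order was the other way in the bulk cultures, with means of 0.113 CPM for Pcdhb13, 2.55 for Pcdhb2 and 1.86 for Pcdhb3. Across the 22 beta genes, the single-cell level followed the mean bulk culture level with Spearman's rho of 0.858, and the mean whole DG level with 0.543. For the 22 gamma genes the values were 0.480 for cultures and 0.299 for whole DG. Bulk levels of longer exons hold more reads. With the culture level per kb of sequence outside the constant exons, rho was 0.718 for beta genes and 0.374 for gamma genes. Whole DG levels per kb were not set against the single cells. Pcdhb1 and the gamma gene Pcdhgb8, which the single-cell table does not list, were entered as 0. The points share the depth of their libraries, and the cultures of the single-cell library are not stated to be the bulk ones.

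Within the gamma cluster Pcdhgc4 led the single-cell library with 525 UMIs, 22.5% of gamma UMIs, ahead of Pcdhgc3 with 485 (20.8%), Pcdhgc5 with 290 (12.4%) and Pcdhga12 with 273 (11.7%). In the bulk cultures Pcdhgc3 had held 74.0% of gene-specific reads, Pcdhgc4 3.53% and Pcdhgc5 2.15%. Beta genes made up 59.0% of beta and gamma UMIs together (57.7% to 60.3%), against 20.1% ± 2.20 of beta and gene-specific gamma reads in bulk cultures and 31.8% ± 2.20 in whole DG. Bulk reads fall along the whole transcript, and the methods' shares are given side by side for that reason, with no comparison of levels.

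**Figure D5:**
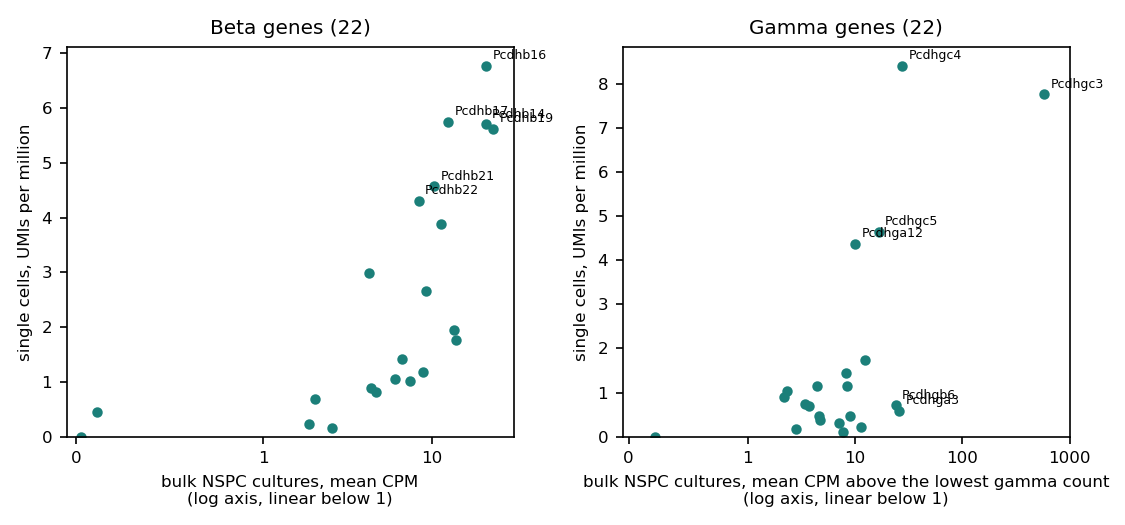
UMIs per 1000000 in the single-cell library against mean CPM in the bulk NSPC cultures (log axis, linear below 1) for 22 beta genes (left) and for the gene-specific part of 22 gamma genes (right). Beta genes follow a common rise (rho 0.858, and 0.718 with the bulk level per kb). Among gamma genes Pcdhgc4 and Pcdhgc3 have similar single-cell levels at bulk means of 27.5 and 583 CPM.

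Across the authors' 6 cell clusters, beta levels were highest in cluster 0, at 68.7 UMIs per 1000000 (64.5 to 73.0), and lowest in cluster 1, at 39.4 (35.9 to 43.2). Cluster 5, at 63.7 (56.6 to 71.4), had an interval that overlapped that of cluster 0. Clusters 2, 3 and 4 were at 50.8, 57.3 and 43.6. Levels per 1000000 already allow for depth, so thinning bears on the share of cells with a UMI instead. With every cell thinned to 2000 UMIs, a beta UMI was found in 12.5% of cluster 0 cells (11.5% to 13.6%). The share was 11.4% (9.62% to 13.5%) in cluster 5. In cluster 1 the share was 7.49% (6.62% to 8.44%). Gamma levels were 45.2 per 1000000 (41.9 to 48.8) in cluster 0 and between 33.8 and 36.4 in the other clusters. Thinned, 9.99% of all cells held a beta UMI and 7.38% a gamma UMI, and no cell was left out. The clusters come from 1 library and from the expression of these same cells, so no test was made.

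Cells with several beta UMIs held the same gene or different ones. Of 365 cells with exactly 2 beta UMIs, 306 had UMIs of different beta genes and 59, 16.2% (12.5% to 20.3%), had both from 1 gene. The squared shares of the beta genes in the pooled beta UMIs, which give how often 2 UMIs drawn from the pool would be of 1 gene, sum to 7.86%. The cultures in the mix cannot be told apart, and the difference was not tested. The largest number of different beta genes in a cell was 4, and 28 cells had at least 3. Both a beta and a gamma UMI were found in 455 cells. No step to remove doublets was added, so doublets may be among these cells. A cell can also express more genes than the few molecules captured from it show.

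Other protocadherin genes, which stand alone in the genome and join cells without the clustered code, were mostly lower in the cultures. Of 11 tested non-clustered protocadherins, 9 fell and 2 rose, with a median log2 difference of -2.41, against 41.7% lower and 35.6% higher among all genes tested. Pcdh1 was at 10.4 ± 2.42 CPM in cultures and 401 ± 9.61 CPM in whole DG (log2 difference -5.26, SE 0.20, edgeR adjusted p = 2.19e-07). Pcdh20 was at 0.257 ± 0.287 CPM in cultures and 319 ± 27.5 CPM in whole DG (edgeR adjusted p = 2.55e-07), Pcdh8 at 0.712 ± 0.393 CPM in cultures and 178 ± 12.0 CPM in whole DG (adjusted p = 1.64e-07) and Pcdh9 at 37.3 ± 13.6 CPM in cultures and 130 ± 3.78 CPM in whole DG (adjusted p = 0.000353). The genes that rose were Pcdh18, at 35.8 ± 6.23 CPM in cultures and 3.32 ± 0.229 CPM in whole DG, and Pcdh11x, at 53.6 ± 21.5 CPM in cultures and 6.80 ± 0.153 CPM in whole DG, both named after their values were seen.

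Clustered protocadherin promoters are chosen by the insulator protein CTCF together with cohesin, and are silenced by DNA methylation and by the chromatin protein SMCHD1. Of 24 tested genes of these systems 6 rose and 12 fell, with a median log2 difference of -0.42, against the 35.6% higher and 41.7% lower of all genes. Dnmt1, the maintenance DNA methyltransferase, rose to 285 ± 52.1 CPM in cultures, against 71.8 ± 5.83 CPM in whole DG (log2 difference 1.99, SE 0.20, edgeR adjusted p = 3.69e-05). The cohesin subunit Smc1a rose to 196 ± 25.6 CPM in cultures, against 137 ± 0.548 CPM in whole DG (adjusted p = 0.0139), a call lost without either whole DG library. Pds5b, a cohesin regulator, fell to 98.4 ± 9.75 CPM in cultures, against 176 ± 14.0 CPM in whole DG (edgeR adjusted p = 0.000467). Wiz, a zinc finger protein, fell to 9.74 ± 3.27 CPM in cultures, against 52.9 ± 1.03 CPM in whole DG (edgeR adjusted p = 6.20e-05). Ctcf itself, named after its value was seen, was at 30.3 ± 4.14 CPM in cultures and 94.6 ± 5.67 CPM in whole DG, and Smchd1 was at 69.9 ± 5.46 CPM in cultures and 55.9 ± 2.22 CPM in whole DG (adjusted p = 0.0503).

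Inside the cell, alpha and gamma proteins bind focal adhesion kinases, beside links of the family to the WAVE actin regulators, and they are cut by ADAM10 and gamma-secretase. Of 23 tested genes of these partners and proteases 11 rose and 11 fell, with a median log2 difference of -0.42, again against the 35.6% higher and 41.7% lower of all genes. Ptk2b, a kinase bound by the constant domains, fell to 1.31 ± 1.16 CPM in cultures, against 1530 ± 3.87 CPM in whole DG (log2 difference -10.21, SE 0.49, edgeR adjusted p = 6.71e-07). Nlgn2, a synaptic adhesion protein, fell to 2.68 ± 0.819 CPM in cultures, against 242 ± 15.7 CPM in whole DG (adjusted p = 1.61e-07), and the WAVE complex genes Nckap1 and Cyfip2 fell to 94.8 ± 2.82 and 76.3 ± 44.3 CPM in cultures, against 937 ± 88.6 and 908 ± 14.3 CPM in whole DG (adjusted p = 1.53e-07 and 7.36e-05). The number of genes that rose in this list was 7 without whole DG F1. Adam10, named after its value was seen, was at 296 ± 43.1 CPM in cultures and 92.6 ± 6.11 CPM in whole DG.

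Genes beside or within the clusters were counted next. Of 11 tested flanking and embedded genes 4 rose and 5 fell, with a median log2 difference of -0.41, against the 35.6% higher and 41.7% lower of all genes, and 2 rose without either whole DG library. Upstream of alpha, Zmat2 fell to 63.2 ± 5.10 CPM in cultures, against 209 ± 9.25 CPM in whole DG (edgeR adjusted p = 4.24e-06), while Hars was at 102 ± 12.2 CPM in cultures and 78.3 ± 3.13 CPM in whole DG (adjusted p = 0.0428, kept under 3 of 12 alternatives). Downstream of gamma, Diaph1, an actin nucleator, fell to 4.14 ± 1.25 CPM in cultures, against 125 ± 7.28 CPM in whole DG (adjusted p = 7.31e-07). Next to it, Hdac3, a histone deacetylase, rose to 163 ± 10.6 CPM in cultures, against 60.9 ± 4.26 CPM in whole DG (adjusted p = 1.93e-05), and Rell2 fell to 1.89 ± 0.405 CPM in cultures, against 72.5 ± 2.52 CPM in whole DG (adjusted p = 2.53e-07). Taf7, which lies between beta and gamma, was at 8.70 ± 2.56 CPM in cultures and 8.38 ± 1.02 CPM in whole DG (adjusted p = 0.879), and was named after its value was seen.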

How the data were processed

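For bulk libraries the authors deposited whole read counts per gene without normalization. For single cells they deposited the natural log of 1 plus UMIs per 10000. HISAT2 2.0.6, Subread and featureCounts (bulk), Cell Ranger 3.1.0 and Seurat 3.1.0 are listed in the submitters' processing notes, which give the build as GRCh38 (human) while the symbols are of mouse genes. The sources used here do not state the options on strand and on overlapping genes. Per the labels' protocols, whole DG libraries used NEBNext Ultra II Directional and cultures SMART-Seq HT. No column was unassigned.

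The test was the robust quasi-likelihood F test of edgeR 4.0.16 (R 4.3.3) on counts that passed its default filter, with TMM scaling, Benjamini-Hochberg adjustment and a threshold of 0.05 on all 6 libraries with group as the term, and on the 4 cultures for sex. SE is the size of the log2 difference divided by the square root of F. The lowest alpha and gamma count of each library was subtracted from that cluster's genes, with library sizes of the full table, to give gene-specific reads; summing the deposited counts would count shared reads many times. Levels per kb use exonic length in GENCODE M21 outside the constant exons, not the length held by 1 gene alone as planned, because reads appear under every overlapping gene. Of 50230 table symbols 47583 were in that annotation. Methods were tested on simulated data. UMIs were recovered with all values (100%) within 0.01 of a whole number, and cells were thinned to 2000 UMIs. No cell filter was added.

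Members and lists were chosen with earlier results of these data known. Members have no p-values between cultures and tissue. In each list the 3 most abundant genes and the 2 with the largest log2 difference were named, and 1 gene that this rule names is not reported here. Libraries named F1 and M2 in both groups share a name and a sex. The F1 minus M2 differences of cultures and of tissue correlated at 0.065 over genes. This single value mixes in sex and cannot show whether animals were shared, and the main test took the libraries as unpaired.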

Additional observations from a re-analysis of the deposited data

Results flagged for a closer look

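Of 47 sets of 4 culture values examined, namely the levels of members, 2 held a library far from the other 3 by Dixon's test, where chance gives about 1 in 20. Pcdhb21 was at 7.69 CPM in culture F1, below the 10.9 to 11.6 CPM of the other cultures and above the 3.1 and 3.71 CPM of whole DG F1 and M2. The gene-specific part of Pcdhga10 was 7.44 CPM in culture F1, from 90 reads, against 4, 10 and 0 reads in cultures F2, M1 and M2. Whole DG F1 and M2 had 8.46 and 7.85 CPM of Pcdhga10.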

How the results depend on the processing

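Between cultures and whole DG, the replicate block on the 4 libraries named F1 or M2 called 5 beta genes higher in place of 3. Leaving out 1 library at a time gave 2 to 6 beta genes higher and 3 to 6 lower, 4 to 22 gamma genes higher, 7 to 11 genes of the partner and protease list higher and 2 to 4 flanking genes higher. With the shared part removed, 3 gamma genes were called higher in place of 21, and 6 lower in place of 0. Between the sexes, in place of 4 genes, 273 passed unfiltered and 60 in DESeq2, and 3 to 81 with 1 culture left out. With no filter, 1 alpha and 5 beta members passed, and with the shared part removed 1 gamma member passed. The cause of these shifts was not tested, apart from the shared part, whose removal takes away reads that all genes of a cluster count. The other 262 values kept their direction and call or moved less than the spread, and the Pcdhgb6 call was lost in 2. Beta genes kept their direction in all 21 cases under 10 alternatives and in 20 with a sex term and without culture M2. For the gene-specific part, Pcdhgc3, Pcdhgc4, Pcdhgc5, Pcdhga11, Pcdhac2, Pcdhb3, Pcdhb13, Pcdhb19 and Pcdhb21 kept their calls under all 10 alternatives run, while Pcdhb14, Pcdhb18 and Pcdhga6 kept theirs under 5.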
